A study of Mus musculus with 4 samples.

Results

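The Nrf2 and glutathione defence genes are 10 mouse genes that sense oxidants, make and recycle glutathione, and detoxify reactive compounds. They were taken by gene name from a table of read counts, which holds 26433 genes, and all 10 were found. The counts come from E15 (embryonic day 15) mouse embryos, from tissue that the labels call cortex and the methods of the study call telencephalic, and the comparison asks how the transcriptome of embryos that express human SERPINA3 in neural progenitors differs from that of WT embryos. The 2 cKI f/+ libraries, named KI2 and KI3 in the table, come from mice with human SERPINA3 under the CAG promoter in the Rosa26 locus. A floxed stop cassette blocks the transgene until Nestin-Cre removes it, so expression is confined by design to Nestin-positive cells and their progeny, while the sequenced tissue holds other cells as well. The 2 WT libraries, named WT1 and WT3, come from embryos that the study describes as littermates, and whether these carried Cre or the floxed allele alone is not given in the sources used here. All libraries are labelled C57BL/6, and the methods state that the founders of the line were bred with B6D2F2 mice.

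Nrf2, encoded by Nfe2l2, is a transcription factor that Keap1 holds in the cytoplasm and passes to the proteasome. Oxidants and electrophiles modify cysteines of Keap1, and Nrf2 then accumulates, enters the nucleus and binds antioxidant response elements together with small Maf proteins. Its targets include the enzymes that make glutathione, the reductases that keep glutathione and thioredoxin reduced, and enzymes that remove quinones and haem. In the brain this programme is known to be stronger in glia than in neurons, and glutathione is also the cofactor of the glyoxalase system that clears methylglyoxal.

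Library totals ranged from 17423512 to 18119444 counts, and 3 counts, taken as the floor of detection, corresponded to between 0.166 and 0.172 CPM (counts scaled to a library total of 1000000), which covers counting error only. Markers of cortical neurons summed to between 7045 and 7710 CPM and those of neural progenitors to between 2942 and 3125 CPM, so the labelled tissue was seen in every library. Of 5 sex-linked genes, Xist was called higher and 4 genes of chromosome Y were called lower in cKI f/+ libraries, so the sex of the embryos and the genotype cannot be told apart in any comparison here. Choroid plexus markers summed to 73.3 CPM in KI3 and 12.2 in KI2, against 2.90 in WT1 and 6.60 in WT3, and KI3 stood apart from the other libraries in these markers.

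The antioxidant response element was searched in the promoters as the letters TGACNNNGC, or GCNNNGTCA for the other strand, in windows from 250 bases before to 50 bases after each RefSeq transcription start of GRCm38.p6. Of the 10 genes, 7 had a window there, and 4 of these 7 held the letters in at least 1 window, against 14% of 27025 gene symbols in the same table. Hmox1, Gclc and Gsr had no window. The matches are shown because Nrf2 binds this element, although the 10 genes were taken by name and not by the element. They are printed 5′ to 3′ on the strand of the gene, with 24 bases on each side where the window allows. The matched letters are in capitals. That of Nfe2l2 lies at -240 to -232 from the start and is printed from chr2:75704871-75704913 (minus strand), that of Gclm at -134 to -126 from chr3:122245399-122245455 (plus strand), and that of Txnrd1 at -92 to -84 from the start of 1 of its 3 windows, from chr10:82859090-82859146 (plus strand).
Nfe2l2: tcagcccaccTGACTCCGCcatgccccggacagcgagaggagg
Gclm: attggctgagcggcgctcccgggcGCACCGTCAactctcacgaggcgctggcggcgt
Txnrd1: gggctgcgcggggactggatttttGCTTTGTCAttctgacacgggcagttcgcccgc
The fourth gene, Srxn1, held the letters GCTAGGTCA at 28 to 36 after its start, printed without flanks, at chr2:152105552-152105560. The windows of Slc7a11, Nqo1 and Keap1 did not hold these letters. An element outside the windows would be missed, so these genes may still have one. A match is a run of letters and not a measured binding site, and no binding was measured in these libraries.

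The genes differed widely in level. On the scale of CPM divided by the length of all annotated exons of the gene in kilobases (RPKM), Txnrd1 was highest at 33.6 to 40.1 over the 4 libraries. Txnrd1 encodes cytosolic thioredoxin reductase, the selenoprotein that keeps thioredoxin reduced. Keap1 followed at 11.2 to 12.6 RPKM, and then Gsr, glutathione reductase, at 9.13 to 11.4 and Gclc, the catalytic subunit of glutamate-cysteine ligase, at 9.60 to 10.6. These ranges overlapped, so Keap1 could not be set apart from Gsr, nor Gsr from Gclc. Gclm, the modifier subunit of the same ligase, lay below them at 5.11 to 5.66 RPKM. Srxn1, sulfiredoxin, lay at 3.38 to 4.52 RPKM and Nfe2l2 at 3.53 to 4.08, and these ranges overlapped. Hmox1, haem oxygenase 1, lay at 2.25 to 2.92 RPKM. The classical Nrf2 target Nqo1, a quinone reductase, was near the bottom at 0.256 to 0.604 RPKM, and the cystine transporter Slc7a11 was last at 0.0162 to 0.102. The mean level of Txnrd1 was 71.3 RPKM in place of 36.4 when the length of its longest coding transcript was used, and Gsr and Gclc, and Srxn1 and Nfe2l2, then changed places.

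**Figure D1:**
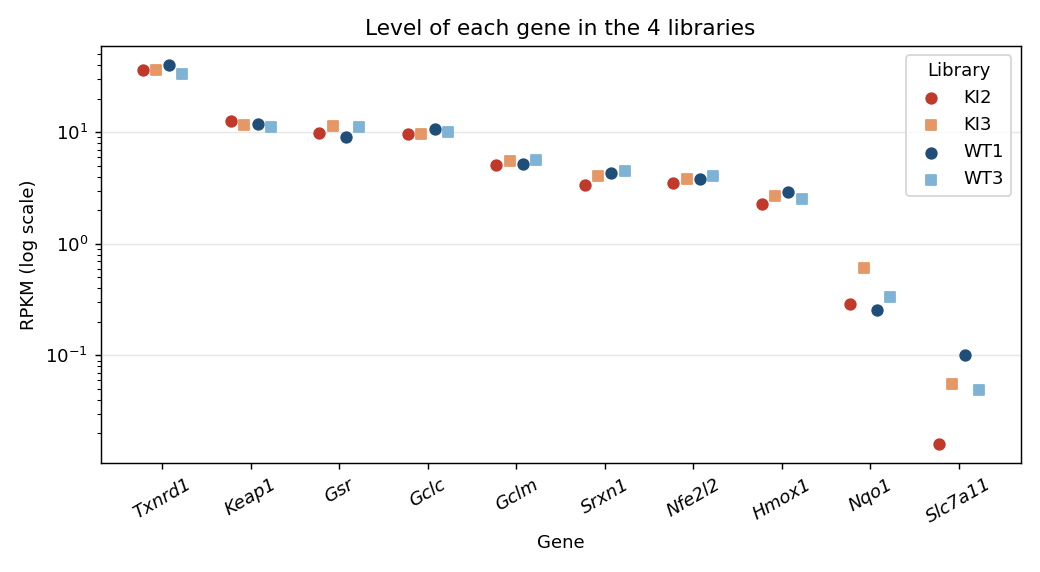
Level of each gene in RPKM (vertical axis, log scale) in the 4 libraries, with circles and squares for the libraries of each group (red and orange, cKI f/+; dark and light blue, WT). The genes are ordered by their mean over the libraries, from Txnrd1 (36.4 RPKM) to Slc7a11 (0.0558 RPKM), and the points of Nqo1 and Slc7a11 are the most scattered.

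Between cKI f/+ and WT cortices, 0 of the 9 genes that passed the filter on low counts were called differentially expressed at an adjusted p under 0.05 with edgeR's quasi-likelihood test. Over all 15786 genes tested, 0.12% were called, with 0.0697% called higher and 0.0507% called lower in cKI f/+ libraries, so a count of 0 among 9 is near this background. At an unadjusted p under 0.05 the count of the 9 genes was also 0, where 4.6% of all genes tested passed, and DESeq2 and edgeR's likelihood ratio test called 0 as well. Nqo1 was the gene left out by the filter. The adjusted p-values of the 9 genes lay between 0.969 and 0.994 with the quasi-likelihood test. Of the 9 genes, 7 had a log2 fold change below 0, where 48.8% of all genes tested did, and the median was -0.09 against 0.00 for all genes. In a bulk tissue, fewer cells of a type and less RNA per cell cannot be told apart. With 2 libraries against 2, an exact permutation test of a single gene cannot give a two-sided p below 0.333, so no such p is given here. The labels do not say whether each library is a separate embryo, so the p-values measure only the spread between these libraries, which may be technical.

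The intervals say how large a difference these libraries leave room for. For the 7 genes whose count reached 100 in each of the libraries, namely Txnrd1, Keap1, Gclc, Gclm, Gsr, Nfe2l2 and Srxn1, the 95% intervals of the log2 fold change lay within -0.59 and 0.36, which is a fold of 0.666 to 1.28. For 9 of the 10 genes the larger gap between libraries of the same group, in log2 CPM, was wider than the fitted difference between groups, and Gclc was the exception.

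**Figure D2:**
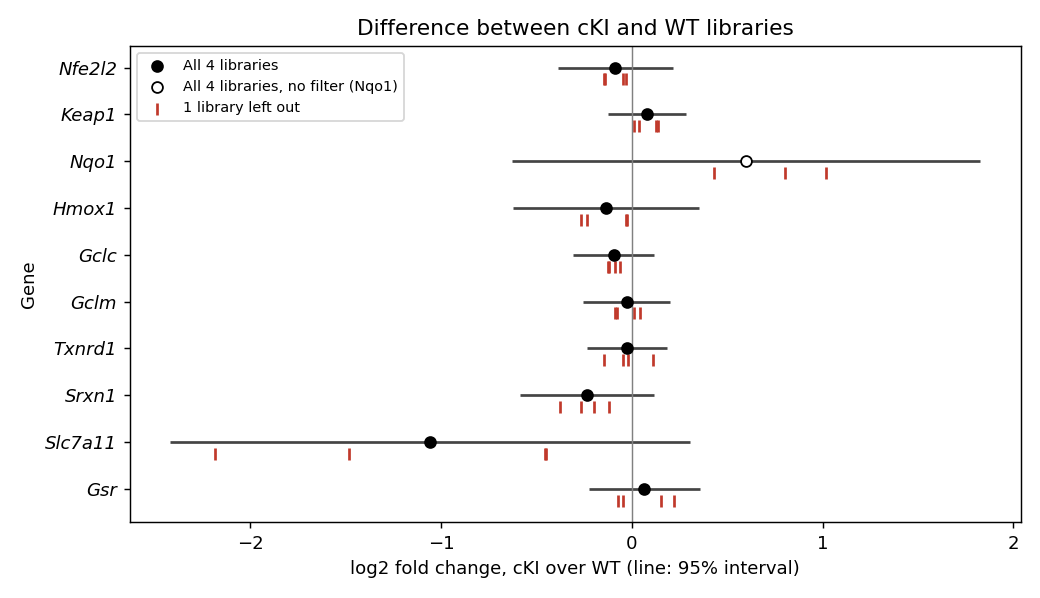
Log2 fold change of cKI f/+ over WT for each gene (horizontal axis), with the 95% interval as a line and the values with each library left out in turn as red ticks. Every interval includes 0. Those of Slc7a11 (-2.42 to 0.30) and Nqo1 (-0.63 to 1.83, open circle, fitted without the filter on low counts) are the widest.

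The sensor and the transcription factor come first. Keap1, the adaptor that brings Nrf2 to the Cul3 ubiquitin ligase, had 1049 and 993 reads in KI2 and KI3 against 983 and 912 in WT1 and WT3. As CPM this was 59.1 and 54.8 against 55.8 and 52.3, and the groups overlapped because KI3 lay below WT1. The log2 fold change was 0.08 (SE 0.09, interval -0.12 to 0.29). Keap1 shares 427 words of 31 bases with Gm16754, an antisense gene at the same place that had 12 and 17 reads in cKI f/+ libraries and 35 and 16 in WT libraries, and the sources used here do not state whether the counting used strand. Nfe2l2 had 238 and 264 reads in cKI f/+ libraries against 253 and 270 in WT libraries, or 13.4 and 14.6 CPM against 14.4 and 15.5. KI3 lay above WT1, so these groups overlapped as well, and the log2 fold change was -0.09 (SE 0.13, interval -0.39 to 0.21). The RPKM of Keap1 was 3.57 and 3.04 times that of Nfe2l2 in KI2 and KI3, and 3.14 and 2.73 times in WT1 and WT3, so Keap1 mRNA exceeded Nfe2l2 mRNA in every library and the ratio did not separate the groups. These are mRNA levels, and Nrf2 is controlled largely through the stability of the protein, which was not measured in these libraries.

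Glutathione is made from glutamate, cysteine and glycine, and the first step, by glutamate-cysteine ligase, sets the rate. Gclc had 36.5 and 36.1 CPM in KI2 and KI3 against 39.9 and 38.1 in WT1 and WT3, from 648, 655, 702 and 664 reads in the same order. The 4 values did not overlap between groups, the cKI f/+ libraries being the lower, but the difference was small, with a log2 fold change of -0.10 (SE 0.09, interval -0.31 to 0.12). Gclm had 32.1 and 34.5 CPM against 32.5 and 35.6, from 570, 625, 573 and 620 reads. Its WT libraries lay both above and below KI3, and the log2 fold change was -0.03 (SE 0.10, interval -0.25 to 0.20). The 2 subunits stayed in proportion: the RPKM of Gclc was 1.82 ± 0.105 times that of Gclm in cKI f/+ libraries and 1.92 ± 0.182 times in WT libraries (SD, n = 2 each), and the ratios overlapped.

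The counting of Gclm reads could have been touched by a copy of another gene. A noncoding transcript of Gclm, of 762 bases, shares 244 bases of an exon with Gm6061, a processed pseudogene of 492 bases at chr3:122256728-122257219 of GRCm38. It shares 225 words of 31 bases with transcripts of Ppia, the abundant mRNA of cyclophilin A, which had between 17815 and 20068 reads in the 4 libraries. The 5 coding transcripts of Gclm, the longest of 5589 bases, share 0 such words with Ppia. Gclm also overlaps Gm17494, an antisense gene with 42 to 61 reads a library. The deposited table itself lists the Pfam domain Pro_isomerase and the KEGG name of Ppia for Gclm, where a ligase subunit is known. How many reads of Gclm come from this exon was not tested, since the table gives 1 count per gene.

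Slc7a11 encodes the light chain of the transporter that takes up cystine, the oxidised source of cysteine, and is a target of both Nrf2 and Atf4. It had 4 and 14 reads in KI2 and KI3 against 25 and 12 in WT1 and WT3. In CPM, with exact Poisson 95% intervals for counting error alone, this was 0.226 (0.0614 to 0.577) in KI2 and 0.773 (0.422 to 1.30) in KI3, against 1.42 (0.918 to 2.10) in WT1 and 0.689 (0.356 to 1.20) in WT3. The values of KI3 and WT3 were close, KI2 lay below them and WT1 above, and the groups overlapped. The Poisson intervals of KI2 and WT1 were apart, while those of every other pair of libraries overlapped. The log2 fold change of -1.06 was the largest of the 10 genes in size (SE 0.61, interval -2.42 to 0.30, adjusted p = 0.969 with edgeR's quasi-likelihood test), and it rested on few reads. It was -2.19 without KI3, -1.48 without WT3, -0.46 without KI2 and -0.45 without WT1. Its direction held in each of these fits while its size did not. The coding transcript of Slc7a11 of 9223 bases shares 221 words of 31 bases with transcripts of Tuba1a, in the opposite orientation, and Tuba1a had between 109485 and 119345 reads. How far reads of tubulin reached Slc7a11 was not tested. Slc3a2, the heavy chain of the transporter, had 112 and 109 CPM in cKI f/+ libraries against 102 and 114 in WT libraries, with a log2 fold change of 0.04 (SE 0.08).

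The next genes return oxidised thiols to the reduced state with electrons from NADPH. Txnrd1 had 256 and 255 CPM in KI2 and KI3 against 284 and 238 in WT1 and WT3, from 4542, 4617, 5008 and 4144 reads. Both cKI f/+ values fell between the WT values, and the gap between the WT libraries was wider than any difference between the groups. The log2 fold change was -0.03 (SE 0.09, interval -0.24 to 0.19). Gsr had 27.0 and 31.3 CPM against 25.1 and 30.8, from 479, 568, 443 and 537 reads. KI3 and WT3 were the high libraries and KI2 and WT1 the low ones, which left a log2 fold change of 0.07 (SE 0.13, interval -0.22 to 0.36). Thioredoxin reductase mRNA exceeded glutathione reductase mRNA in every library, with RPKM ratios of 3.69 and 3.16 in KI2 and KI3 against 4.39 and 2.999 in WT1 and WT3. Srxn1, which restores overoxidised peroxiredoxins, had 9.53 and 11.5 CPM in KI2 and KI3 against 12.1 and 12.7 in WT1 and WT3, from 169, 209, 214 and 222 reads. Its groups did not overlap, with the cKI f/+ libraries lower and KI2 the lowest. The log2 fold change was -0.24 (SE 0.16, interval -0.59 to 0.12, adjusted p = 0.969 with edgeR's quasi-likelihood test), and it lay between -0.38 without KI3 and -0.12 without KI2.

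The last genes are the enzymes most often read as reporters of Nrf2 activity. Hmox1, which opens the haem ring and releases iron, biliverdin and carbon monoxide, had 3.95 and 4.69 CPM in KI2 and KI3 against 5.11 and 4.42 in WT1 and WT3, from 70, 85, 90 and 77 reads. KI3 lay above WT3, and the log2 fold change was -0.14 (SE 0.22, interval -0.62 to 0.35). Nqo1, which reduces quinones by a pair of electrons at once, had 8 and 17 reads in KI2 and KI3 against 7 and 9 in WT1 and WT3. In CPM, with exact Poisson 95% intervals, this was 0.451 (0.195 to 0.889), 0.938 (0.547 to 1.502), 0.397 (0.160 to 0.819) and 0.517 (0.236 to 0.981) in the same order. KI3 was the high library, WT3 lay above KI2, and all intervals overlapped. Fitted without the filter, the log2 fold change of Nqo1 was 0.60 (SE 0.54, interval -0.63 to 1.83), so neither a rise nor a fall was resolved with these libraries.

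Counted over the 10 genes, 2 had groups that did not overlap in CPM, Gclc and Srxn1, both lower in cKI f/+ libraries. That is 20% of the 10 genes, where 33.9% of all genes tested had groups that did not overlap, 18% lower and 16% higher in cKI f/+ libraries. The libraries also differed within a group, since 7 of the 10 genes were higher in KI3 than in KI2 and 5 of the 10 were higher in WT3 than in WT1. The 10 genes lie on 5 chromosomes, 2, 3, 8, 9 and 10, and 0 of them lie on chromosomes 17, X or Y.

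The genes around this core were examined through 9 lists with 148 genes, of which 133 were tested. By edgeR's quasi-likelihood test 0 of the 133 were called in either direction, and DESeq2 and the likelihood ratio test also called 0. At an unadjusted p under 0.05, 6 genes or 4.51% passed, near the 4.6% of all genes. In all, 68 of the 133 genes lay above and 65 below 0, with a median log2 fold change of 0.02. The medians of the single lists lay between -0.03, for the regulators and partners of Nrf2, and 0.10, for glutathione synthesis and breakdown.

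**Figure D3:**
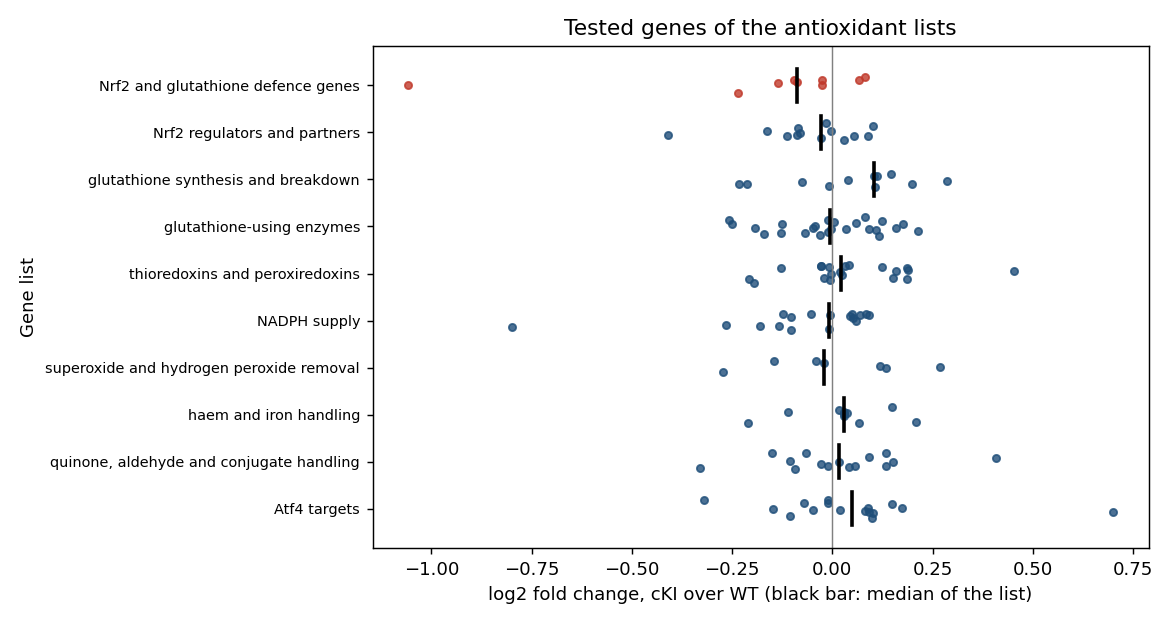
Log2 fold change of cKI f/+ over WT (horizontal axis) for the tested genes of each list, with the 9 tested Nrf2 and glutathione defence genes in red, the other lists in blue and the median of each list as a black bar. The lists centre near 0, and the points farthest from it are Slc7a11 (-1.06) and Aldh1l1 (-0.80).

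By role, 13 of 14 regulators and partners of Nrf2 were tested, and 0 were called in either direction. Maff, a small Maf protein that pairs with Nrf2, had the smallest p among them, with 3.04 and 4.69 CPM in KI2 and KI3 against 5.73 and 4.59 in WT1 and WT3 (log2 fold change -0.41, SE 0.26). Cul3, the scaffold of the ligase that Keap1 serves, had a log2 fold change of -0.09 (SE 0.09). Among 11 of 11 genes of glutathione synthesis, cystine uptake and breakdown, 0 were called, and the smallest p was that of Oplah, which opens 5-oxoproline to glutamate, with 19.2 and 16.8 CPM against 13.7 and 15.96 (log2 fold change 0.29, SE 0.14). Gss, the second enzyme of glutathione synthesis, had a log2 fold change of -0.01 (SE 0.16).

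Among the enzymes that use glutathione, 24 of 28 were tested and 0 were called. Gstm7, a glutathione S-transferase, had 36.4 and 36.2 CPM in KI2 and KI3 against 43.5 and 43.2 in WT1 and WT3 (log2 fold change -0.25, SE 0.09, adjusted p = 0.969). Its replicates were close together and its groups did not overlap. All 20 thioredoxins, peroxiredoxins and their partners were tested and 0 were called, with the smallest p for Sesn1, a sestrin, at a log2 fold change of -0.20 (SE 0.09). For the supply of NADPH, 17 of 19 genes were tested and 0 were called. Aldh1l1, which makes NADPH from formyl-tetrahydrofolate and marks astroglia, had 6.71 and 8.50 CPM in KI2 and KI3 against 10.4 and 16.2 in WT1 and WT3 (log2 fold change -0.80, SE 0.23, adjusted p = 0.876). WT3 was the highest library, and without WT1 the log2 fold change of Aldh1l1 was -1.08 with an adjusted p of 0.0120 from the same test, so the call depended on which library was left out.

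Of 8 genes for the removal of superoxide and hydrogen peroxide, 7 were tested and 0 were called. Sod1, cytosolic superoxide dismutase, had 169 and 187 CPM in KI2 and KI3 against 141 and 156 in WT1 and WT3 (log2 fold change 0.27, SE 0.09, adjusted p = 0.969). Of 12 genes of haem and iron handling 10 were tested and 0 were called, with the smallest p for Ftl1, the ferritin light chain, at a log2 fold change of 0.15 (SE 0.09). Of 18 genes for quinones, aldehydes and conjugates 15 were tested and 0 were called. Cbr1, a carbonyl reductase that takes electrons from NADPH, had 73.6 and 82.6 CPM against 55.7 and 62.5, a log2 fold change of 0.41 (SE 0.10), and the lowest adjusted p of the 9 lists at 0.573. Of 18 targets of Atf4, the stress factor that also drives Slc7a11, 16 were tested and 0 were called, and the smallest p was that of Cbs, which turns homocysteine towards cysteine, at a log2 fold change of -0.32 (SE 0.13). The adjusted p-values in these lists are those of edgeR's quasi-likelihood test over all genes.

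The gene ontology terms that the table lists per gene were counted as well. The term response to oxidative stress is carried by 5 of the 10 genes, Nqo1, Hmox1, Gclc, Txnrd1 and Srxn1, and 0 of its 108 tested genes were called by edgeR's quasi-likelihood test, with 5 or 4.63% at an unadjusted p under 0.05, where 4.6% of all genes tested passed. Cell redox homeostasis is carried by Nfe2l2, Gclc, Txnrd1 and Gsr, and 0 of its 63 tested genes were called, with 2 or 3.17% at an unadjusted p under 0.05. Glutathione metabolic process is carried by Gclc, Txnrd1 and Gsr, and 2 of its 39 tested genes, or 5.13%, were called, Glo1 and Gm13443, where 0.12% of all genes were. At an unadjusted p under 0.05 its count was 5 or 12.8%, above the 4.6% of all genes, a difference that was not tested. Neither called gene is among the 10 genes, and Glo1 is a gene that the study itself reports as upregulated in cKI f/+ mice. The terms were taken after their members had been seen.

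The markers of other cell types differed between libraries, and 0 of them were called by edgeR's quasi-likelihood test. Meningeal markers summed to 96.0 and 95.1 CPM in KI2 and KI3 against 61.5 and 79.0 in WT1 and WT3, and 9 of 12 were tested, 7 above and 2 below 0, with 5 at an unadjusted p under 0.05. The summed choroid plexus markers were led by Ttr, which had 6.54 and 52.8 CPM in KI2 and KI3 against 0 and 0.230 in WT1 and WT3. Of the 6 tested choroid plexus markers, 6 had a log2 fold change above 0 and 0 below, with 3 at an unadjusted p under 0.05. In 3 of them the groups did not overlap (Ttr, Clic6 and Aqp1, all higher in cKI f/+ libraries) and in 3 they did (Otx2, Folr1 and Msx1). Over all genes tested, 33.9% had groups that did not overlap, with 16% higher in cKI f/+ libraries. An unadjusted p under 0.05 by the same test was reached by 4.6% of all genes tested. In Otx2, KI2 at 0.733 CPM lay below both WT libraries, at 1.08 and 2.24 CPM. Erythroid markers, which matter for haem, summed to 509 and 388 CPM in KI2 and KI3 against 512 and 544 in WT1 and WT3, and 10 of 11 tested lay below 0. Markers of microglia and macrophages, in which Hmox1 is abundant, summed to 38.5 and 41.9 CPM against 42.2 and 43.0. Their members went both ways, with 7 of 11 tested above and 4 below 0 and a median log2 fold change of 0.15, so the lower sum rests on members such as Cx3cr1, at 4.12 and 5.24 CPM against 6.76 and 7.52. Markers of endothelium and pericytes summed to 239 and 261 CPM against 269 and 266, with 3 of 12 tested above and 9 below 0. Those of the ventral telencephalon summed to 238 and 250 CPM against 246 and 308, with 2 of 8 tested above and 6 below 0. The part of these cells in the values of the 10 genes was not tested. Without KI3, the library with the most choroid plexus signal, 0 of the 9 tested genes were called and their median log2 fold change was -0.09, but single genes moved. The log2 fold change of Slc7a11 went from -1.06 to -2.19, that of Srxn1 from -0.24 to -0.38 and that of Gsr from 0.07 to -0.04. The number of the 10 genes whose groups did not overlap went from 2 to 7, where the share over all genes tested went from 33.9% to 62.2%. Leaving out other libraries moved the genes too. Slc7a11 went to -0.45 without WT1 and Gsr to 0.22 without WT3, where 7 of the 10 genes and 70.9% of all genes tested did not overlap. The remaining KI2 still had 12.2 CPM of choroid plexus markers, against 2.90 in WT1 and 6.60 in WT3. Whether the shifts relate to choroid plexus was not tested.

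**Figure D4:**
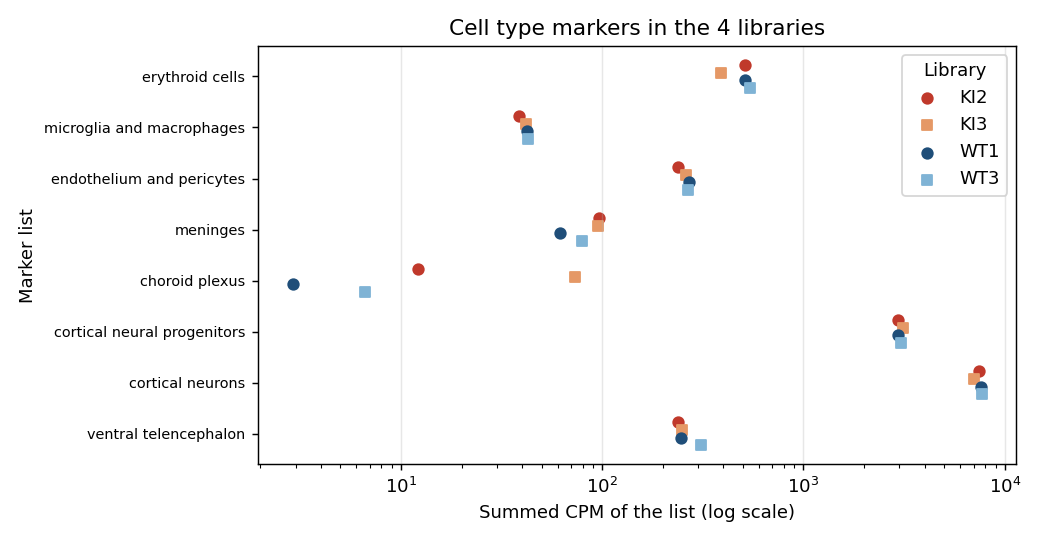
Summed CPM of the markers of each cell type (horizontal axis, log scale) in the 4 libraries, with symbols as in the plot of gene levels. Choroid plexus is the list that spreads most between libraries, from 2.90 CPM in WT1 to 73.3 in KI3, and the lists of cortical neurons and progenitors spread least.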

How the data were processed

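RNA of E15 cortex (telencephalic tissue in the methods of the study) was measured by bulk RNA-seq, and the table that the authors deposited holds unscaled read counts of each gene in 4 libraries. Per the labels, the submitters' processing notes name Bowtie2 2.2.3, TopHat2 2.0.12 and HTSeq 0.6.0 and the build mm9, whereas the gene positions of 24485 of 26433 genes in the deposited table are those of GENCODE M21 on GRCm38, and GRCm38 positions are given here. Whether counting used strand is not given in the sources used here. The columns name a genotype but not a single labelled sample, and libraries were assigned to groups only. The authors' own comparison in the deposited table, which holds a mean signal, a fold change as a ratio and as log2, and p-values, was not used.

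With R 4.3.3, edgeR 4.0.16 kept 15786 genes by its default filter, scaled them by TMM and fitted the quasi-likelihood test over all genes, and p-values were adjusted over all of them by Benjamini-Hochberg (threshold 0.05). The SE is the size of the log2 fold change divided by the square root of F, and 95% intervals use the t distribution. CPM are scaled to library totals. RPKM use the merged exons of GENCODE M21. The script was tested on simulated counts. DESeq2 1.42.0, the likelihood ratio test, other scalings and filters, fits without each library and a fit with genes of chromosomes X and Y taken out were alternatives, and the length of the longest coding transcript was added after seeing the data. The genes and lists were chosen with earlier results of these data known. All 10 genes are named, and from each list the gene with the smallest p if none was called. Cul3, Gss, Slc3a2, Xist, Glo1, Gm13443 and single markers of other cell types were named besides, after their values were seen. Copies of the genes were sought as shared words of 31 bases, at least 100 of them, in GENCODE M21 transcripts. Human SERPINA3 was not analysed here.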

Additional observations from a re-analysis of the deposited data

How the results depend on the processing

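The count of 0 called among the Nrf2 and glutathione defence genes was 0 under every alternative, with adjusted p-values of at least 0.606. The 81 fold changes recomputed with all libraries kept their direction and their side of the threshold. Of 39 recomputed with a library left out, 5 changed direction and 0 were called. They were Gclm (log2 fold changes of -0.0896 to 0.0420, at 0.00898 without KI2), Txnrd1 (-0.15 to 0.11, at 0.11 without WT1) and Gsr (-0.0736 to 0.222, at -0.0446 without KI3). With a library left out, 1 to 4 of the genes were higher in cKI f/+ libraries, against 2 of the 9 tested with all. These counts cover unlike sets, since Nqo1 passed the filter and lay above 0 without KI2, without WT1 and without WT3. With all libraries and no filter on low counts, 3 were higher. Groups did not overlap in 4 to 7 of the 10 genes against 2, where 62.2% to 70.9% of all genes tested did not overlap against 33.9%. Over all genes, 19 were called, among them Xist and 4 genes of chromosome Y. Of these 5 sex-linked genes, 4 had 0 counts in at least 1 library. The likelihood ratio test called 54. A filter that asks for 10 counts in each library, which those 4 genes fail, left 6. Taking out chromosomes X and Y, and these 5 genes with them, left 11. The number was 46 to 71 with a library left out and 726 at an unadjusted p under 0.05, and the cause was not tested except that the filters test fewer genes. The lists gave 6 at an unadjusted p, and 0 to 1 with a library left out, the 1 being Aldh1l1 without WT1. Fits without a library leave a group of 1, assumed to vary like the other. No paired analysis was possible because the names do not pair the libraries. Of the numbers in the names of the count columns, only the 3 of KI3 and WT3 occurs in both genotypes. The sample titles, whose numbers match those of the columns only in part, share no number between genotypes. At 4 to 25 reads a library, Slc7a11 and Nqo1 carry wide counting error, and whether this accounts for their spread was not tested.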
